A study of Taxus x media with 6 samples.

Results

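Across the assembled genes measured in twigs of Taxus × media, 33 of 43846 met a rule for a clear and well-measured female bias, and they are described here tree by tree. Each of the 33 was the single listed gene of its component, which in Trinity-style identifiers is the cluster named by the DN and c numbers. Each had at least 10 TPM in every female tree, and its lowest female value was at least 3 times its highest male value. TPM is a length-corrected measure of each gene's share of its library. The 100 most abundant genes were left out, and none of them met the other conditions. The rule used the female and male values themselves, so the levels, gaps and fold changes of the 33 genes describe the choice and carry no test. The samples were twigs of 3 female trees and twigs of 3 male trees of the same hybrid, grown under one set of light and humidity conditions, with 1 poly(A) library per tree. The labels name no treatment, age, cultivar, clone or parentage. What differs between the sexes and what differs between lineages that happen to be split by sex cannot be told apart.

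Yews are conifers with separate sexes. Female trees bear single ovules that ripen into seeds cupped in a fleshy aril, and male trees bear small pollen cones. Taxus × media is a garden hybrid of European and Japanese yew, and its twigs and needles are a source of paclitaxel, an anticancer diterpenoid made by the taxoid pathway. The series title names sexual dimorphism in taxoids and a complex of MYB and bHLH proteins, which in plants are large families of DNA-binding transcription factors that can act together. The files pair no identifier with a gene name or a sequence, so whether any of the 33 genes belongs to that pathway or those families was not analysed here. For the same reason 2 identifiers are given, and the other genes are called by their rank in mean female TPM, from rank 1 (highest) to rank 33.

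The 6 libraries listed the same 43846 genes in 24671 components, of which 15618 held 1 listed gene. Between 38652 and 41505 genes were above 0 in a library, and read depth is not kept by TPM, so it is unknown. Among the single-gene components outside the 100 most abundant genes, 4299 had at least 10 TPM in every female tree, and the 33 genes were 0.768% of them. Over the 41430 genes tested with limma, 4.71% were called with female trees higher and 6.94% with male trees higher. All 33 genes were among the calls towards female trees, against a background of 6.72% among the 4299. That count follows from choosing the genes on the same contrast. It was 30 with a pseudocount of 0.1 and 29 to 32 with single libraries left out. The median log2 fold change, female over male in log2(TPM + 1), was 3.01 over the 33 genes and -0.11 over all tested genes. It was 2.81 over the 31 genes that had a value above 0 in a male tree.

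The 33 genes covered a wide range of abundance in female twigs, with 3 genes far above the rest. Their mean female level ran from 11.4 to 1036 TPM, with a median of 35.9 TPM. In number, 6 averaged 100 TPM or more, 3 averaged 50 to 100 TPM, 15 averaged 20 to 50 TPM and 9 were under 20 TPM. In male trees the mean level ran from 0 to 143 TPM, with a median of 2.67 TPM.

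The most abundant was TRINITY_DN17591_c0_g1. It had 1033, 1294 and 782 TPM in female trees 1, 2 and 3, against a listed 0, 4.26 and 2.13 TPM in male trees 1, 2 and 3. Its lowest female value was 184 times its highest male value. Rank 2 showed another pattern at a similar abundance. It had 687, 830 and 599.9 TPM in female trees 1, 2 and 3, against 127, 121 and 182 TPM in male trees 1, 2 and 3, which averages 706 ± 116 TPM for the female trees and 143 ± 33.5 TPM for the male trees (SD over 3 trees each). It was thus an abundant transcript in both sexes, with a female mean 4.92 times the male mean. Rank 3 had 837, 708 and 319 TPM in female trees, against a listed 0, 1.84 and 1.99 TPM in male trees. Ranks 1 and 3 were both at 4.26 TPM or less in every male tree and both lowest in female tree 3 among the female libraries.

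**Figure D1:**
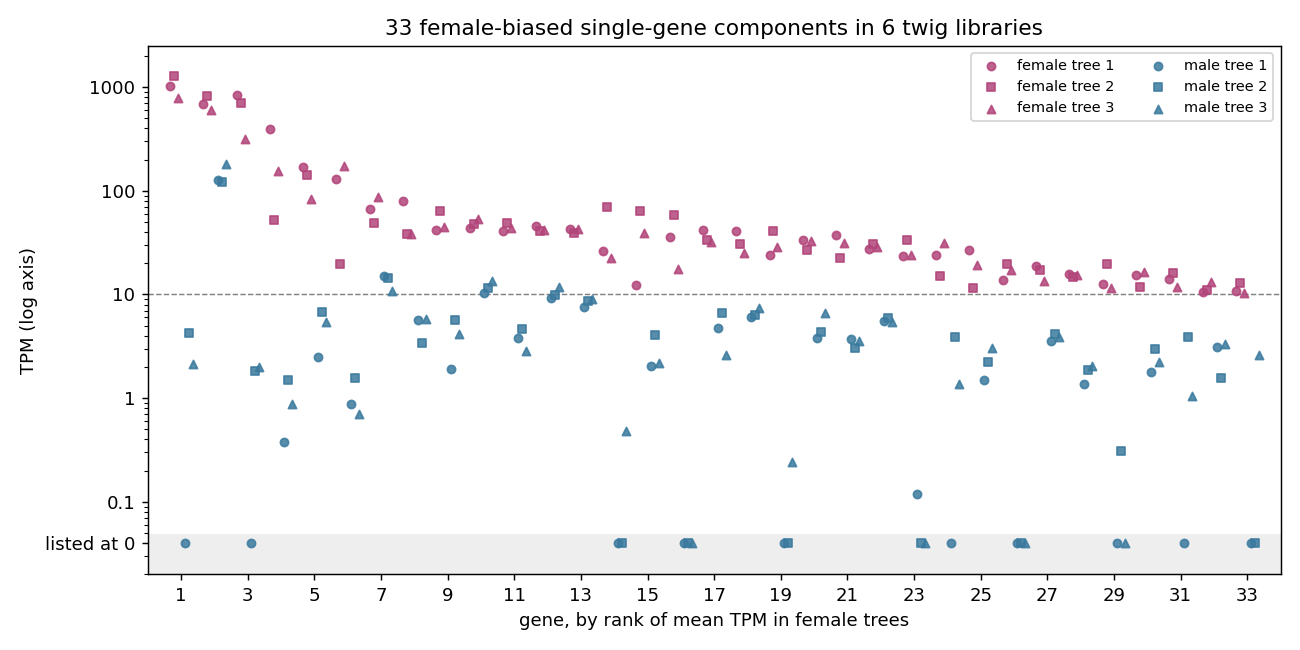
TPM (log axis) of each of the 33 genes in each tree, with female trees left of male trees at each rank, 1 point per tree. All female points lie at or above the dashed line at 10 TPM, while male points spread from values listed at 0 (grey band) to 182 TPM at rank 2.

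These 3 genes made up most of the summed level. The 33 genes together took 0.409%, 0.395% and 0.292% of the TPM in female trees 1, 2 and 3, against 0.0223%, 0.0247% and 0.0300% in male trees 1, 2 and 3. Ranks 1 to 3 held 62.6%, 71.9% and 58.5% of the set's TPM in female trees 1, 2 and 3, against 57.4%, 51.6% and 62.2% in male trees 1, 2 and 3. In male trees nearly all of that share was the gene of rank 2. The other 30 genes summed to 1281 ± 219 TPM for the female trees and 109 ± 12.8 TPM for the male trees (SD over 3 trees each).

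The gap between the sexes ranged from just past the limit to complete. The lowest female value was 3 to 5 times the highest male value in 17 genes, 5 to 10 times in 5, 10 to 100 times in 5 and over 100 times in 4. No ratio exists for the remaining 2, which were listed at 0 in all male trees. The 4 widest gaps were at ranks 1, 3, 19 and 23. Rank 23 had 23.7, 33.8 and 23.9 TPM in female trees 1, 2 and 3, against 0.12 TPM in male tree 1 and a listed 0 in male trees 2 and 3. At moderate abundance it had the highest ratio, at 197 times. That ratio rests on the 0.12 TPM of male tree 1, and how many reads this stands for is unknown.

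**Figure D2:**
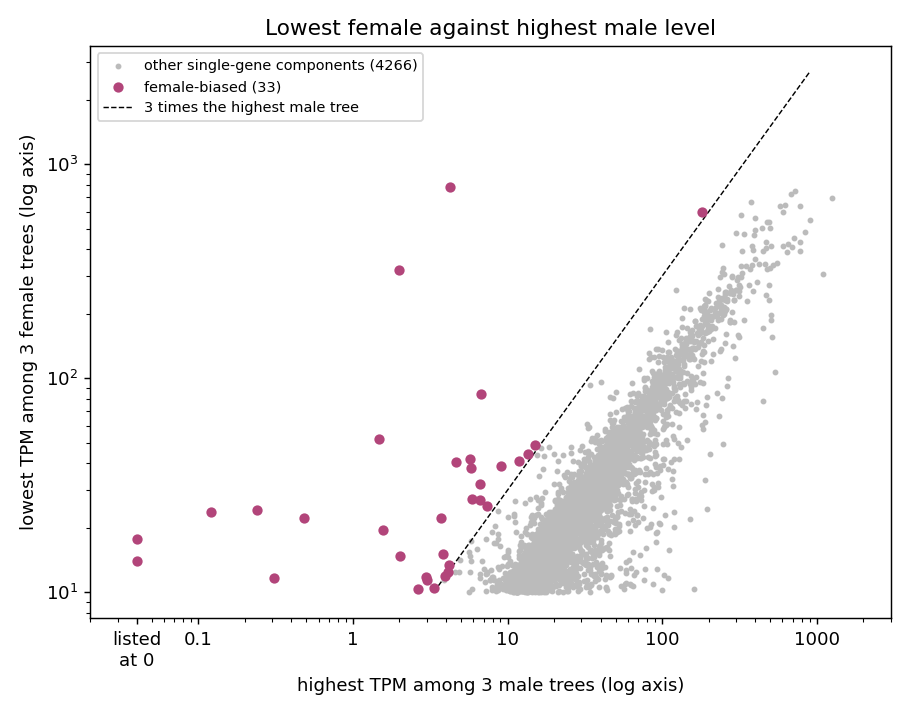
Lowest TPM among female trees (vertical, log axis) against highest TPM among male trees (horizontal, log axis) for the 4299 single-gene components with at least 10 TPM in every female tree, outside the 100 most abundant genes. The 33 genes lie on or above the dashed line of 3 times the highest male tree, and the 2 at the left edge were listed at 0 in every male tree.

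Just inside the limit of 3 times, the gene of rank 31 stood at 3.02, with 14.0, 16.2 and 11.9 TPM in female trees 1, 2 and 3, against a listed 0, 3.93 and 1.05 TPM in male trees 1, 2 and 3. Just outside it, a gene at 2.98 had 30.7, 35.4 and 17.3 TPM in female trees, against 4.59, 5.80 and 3.71 TPM in male trees. At the floor of 10 TPM, the lowest female value of a chosen gene was 10.3 TPM (rank 33), and the nearest gene left out had a lowest value of 9.76 TPM. Of the 33 genes, 13 had a ratio from 3 up to 4. On the other side of the limit, 35 of the 4299 genes had a ratio from 2 up to 3 and 57 from 1.5 up to 2, while 856 had one from 1 up to 1.5. Below the floor there were more. Another 86 single-gene components met the ratio with a lowest female value from 5 up to 10 TPM.

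In male trees the 33 genes formed a graded series from clearly expressed to listed at 0. In 20 of them every male tree had at least 1 TPM, in 7 the male trees fell on both sides of 1 TPM, and in 6 every male tree was under 1 TPM. Of the first 20, 7 had at least 5 TPM in every male tree and 3 of those at least 10 TPM. Those 3 were ranks 2, 7 and 10. Rank 7 had 67.4, 49.0 and 86.8 TPM in female trees 1, 2 and 3, against 15.0, 14.5 and 10.9 TPM in male trees 1, 2 and 3. At rank 10 the levels were 44.2, 47.8 and 53.0 TPM in female trees, against 10.4, 11.5 and 13.5 TPM in male trees. Both genes were thus at 10 TPM or more in all 6 trees, at female means 5.02 and 4.10 times the male means.

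At the other end, the 6 genes under 1 TPM in every male tree were ranks 14, 16, 19, 23, 26 and 29. The most abundant gene listed at 0 in all male trees was TRINITY_DN19276_c0_g1 (rank 16), with 36.2, 59.1 and 17.7 TPM in female trees 1, 2 and 3. The second, rank 26, had 13.9, 19.7 and 17.2 TPM in female trees 1, 2 and 3. A listed 0 does not show how many reads could have been seen, so no fold is given for these 2 genes. The other 4 of the group had a male value above 0 in 1 tree each, between 0.12 and 0.48 TPM. Rank 14, for example, had 26.2, 69.85 and 22.3 TPM in female trees 1, 2 and 3, against a listed 0, a listed 0 and 0.48 TPM in male trees 1, 2 and 3.

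Zeros were uneven among the male libraries. In male trees 1, 2 and 3, 10, 6 and 4 of the 33 genes were listed at 0, which is 30.3%, 18.2% and 12.1%. Over all 43846 genes these shares were 9.60%, 5.996% and 6.97%. The rule asks for low male values, so the choice itself favours zeros in male trees among the 33. Male tree 1 was also the male library with the fewest genes above 0, at 39636. Its part in the low values was not tested. Among the 31 genes above 0 in some male tree, male tree 1 was the highest male library for 3 and male trees 2 and 3 for 14 each. Among the other 4266 well-expressed single-gene components, male tree 1 was the highest male library for 38.2%, male tree 2 for 32.6% and male tree 3 for 29.3%.

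Female trees varied more in these genes than in other single-gene components of the same minimum level. The ratio of the highest to the lowest female tree had a median of 1.53 over the 33 genes and 1.22 over the other 4266, whose median female level was 27.1 TPM. It reached 1.5 in 17 of the 33 (51.5%) and in 17.2% of the others, and it reached 3 in 5 of the 33 (15.2%) and in 1.41% of the others. The rule acts on the lowest female tree and sets no upper bound on the others, so these counts are a description without a test. The order of the trees was mixed. Female trees 1, 2 and 3 were highest for 12, 14 and 7 of the 33 genes and lowest for 9, 12 and 12.

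The 5 most uneven genes fell into opposite patterns around female tree 2. The gene of rank 4 had 397, 52.2 and 157 TPM in female trees 1, 2 and 3, against 0.38, 1.48 and 0.88 TPM in male trees 1, 2 and 3. Rank 6 had 130, 19.6 and 173 TPM in female trees, against 0.87, 1.56 and 0.70 TPM in male trees. Both were lowest in female tree 2, by factors of 7.61 and 8.81 between the highest and the lowest female tree. Ranks 14, 15 and 16 were instead highest in female tree 2. At rank 15 the levels were 12.4, 64.55 and 39.1 TPM in female trees, against 2.03, 4.11 and 2.19 TPM in male trees. In the gene of rank 15 the female spread of 5.20 times was wider than the 3.02-fold gap to the highest male tree.

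Other genes were close to constant within a sex. Among the 33, 16 had a highest female tree under 1.5 times the lowest. The gene of rank 28 was the most even, with 15.8, 14.8 and 15.4 TPM in female trees 1, 2 and 3, against 1.37, 1.87 and 2.03 TPM in male trees 1, 2 and 3. Next came rank 12, with 45.3, 41.1 and 41.8 TPM in female trees, against 9.28, 9.81 and 11.8 TPM in male trees. At rank 13 there were 42.7, 39.0 and 43.1 TPM in female trees, against 7.52, 8.70 and 9.08 TPM in male trees. Ranks 28, 12 and 13 had female means 8.74, 4.15 and 4.94 times the male means. Gaps varied among the 16 genes, however. The highest ratio, 197 times at rank 23, came with a female spread of 1.43 times. Rank 26, listed at 0 in all male trees, had a female spread of 1.42 times.

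Because every tree took part in the choice, the rule was also applied to 5 libraries at a time and the value of the sixth tree was read. Without female tree 1 the rule gave 60 genes, and female tree 1 was above every male tree in 55 of them and at least 3 times the highest male tree in 43 (71.7%). Female tree 2 was above every male tree in 63 of 65 genes and reached 3 times in 48 (73.8%), and female tree 3 was above in 46 of 48 genes and reached 3 times in 41 (85.4%). Among the other well-expressed single-gene components, female trees 1, 2 and 3 were above every male tree in 42.9%, 36.0% and 41.5%. They reached 3 times the highest male tree in 0.470%, 0.353% and 0.501% of those components. The unused female tree was not part of the choice, but the male values it was set against were chosen to be low, and the 33 genes are among those that reached 3 times by construction. In the unused female trees 1, 2 and 3, 25, 22 and 11 of the genes so chosen were under 10 TPM.

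The rule gave 39, 37 and 38 genes without male trees 1, 2 and 3. The unused male tree lay below all female trees in each of these genes. For the 33 among them this holds by the full rule, so only the other 6, 4 and 5 genes could have differed. Among the other well-expressed single-gene components, the unused male tree lay below all female trees in 33.4%, 34.6% and 35.7% for male trees 1, 2 and 3. Those components were not chosen for low male values, so the shares are not a matched background. The chosen genes in which the unused male tree also kept the 3-fold gap are the 33 by definition. Thus 6, 4 and 5 of the chosen genes did not keep it. The 6 readings share libraries and genes are not replicates, so they are counts and not tests.

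Genes that share a DN number with one of the 33 but have another c number were not used by the rule. They are called related genes here for short. Their limma results are given, but these genes need not be independent of the chosen ones. Calls among them are therefore no separate support for the female bias of the 33. What a shared DN number means for their sequence is not stated in the sources used here, and reads of similar sequences could have been divided between them. The 33 genes had 33 different DN numbers, and 10 of these held other listed genes, 43 in all. That is 30.3% of the 33, against 14.5% of the other well-expressed single-gene components. Of the 43 genes, 42 were tested. At a limma adjusted p under 0.05, 8 were higher in female trees (19.0%), where 4.71% of all tested genes were, and 3 were higher in male trees (7.14%), where 6.94% were. The other 31 were not called, and the median log2 fold change of the 42 was 0.09. Among 1602 tested genes that share a DN number with other well-expressed single-gene components, 5.31% were called with female trees higher and 7.55% with male trees higher. The 8 calls towards female trees lay with only 3 of the 33 genes, ranks 12, 19 and 29, and fell to 5 without female tree 3, without male tree 1 or without male tree 3. With a filter of 5 TPM they were 3. Calls towards male trees numbered 1 without female tree 2, without male tree 2 or with that filter.

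The closest match was with the gene of rank 19, which had 24.2, 41.3 and 28.9 TPM in female trees 1, 2 and 3, against a listed 0, a listed 0 and 0.24 TPM in male trees 1, 2 and 3. A gene with the same DN number had 27.7, 46.7 and 28.9 TPM in female trees, against 0.03, 0.38 and 0.12 TPM in male trees. It met the rule's limits of level and gap and was left out only because its component held another listed gene. Its log2 fold change was 4.88 with an SE of 0.28, at a limma adjusted p of 0.000869. The levels of these 2 genes ran in parallel over the female trees, with the highest in female tree 2, and both were under 0.5 TPM in every male tree. A further gene of this number had 16.0, 18.5 and 18.4 TPM in female trees, against 1.53, 1.84 and 1.19 TPM in male trees, with a log2 fold change of 2.89, an SE of 0.20 and a limma adjusted p of 0.00151. Yet another went the other way, with 0.62 TPM in female tree 3 and a listed 0 in the other two, against 2.62, 5.35 and 2.17 TPM in male trees (log2 fold change -1.83, SE 0.36, limma adjusted p of 0.0237).

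Around rank 12 all 5 related genes leaned the same way at low level. Their mean female levels were 1.93 to 7.11 TPM, and the highest of their mean male levels was 1.26 TPM. In 3 of the 5 the difference was called by limma, with log2 fold changes of 1.51 ± 0.25, 1.45 ± 0.28 and 1.08 ± 0.26 (SE). The group of rank 29 was split. The chosen gene had 12.5, 19.8 and 11.6 TPM in female trees 1, 2 and 3, against a listed 0, 0.31 and a listed 0 in male trees 1, 2 and 3. Of its 8 related genes, 3 were called higher in female trees, and 1 was called higher in male trees, where it had 8.36, 8.61 and 8.01 TPM and was listed at 0 in all female trees (limma adjusted p of 0.00169).

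Around 6 of the 10 genes no tested related gene was called in either direction. The gene of rank 5 had 172, 143 and 84.2 TPM in female trees 1, 2 and 3, against 2.49, 6.74 and 5.41 TPM in male trees 1, 2 and 3. Its most abundant related gene had 59.1, 73.2 and 51.2 TPM in female trees, against 64.5, 64.9 and 54.1 TPM in male trees, with a log2 fold change of -0.01, an SE of 0.15 and a limma adjusted p of 0.976. The difference of the chosen gene follows from the rule, while this related gene, at a similar order of abundance, was within the spread between trees. The only untested related gene also belongs to rank 5. It was listed at 0 in all female trees, against 4.04, 6.73 and 0.56 TPM in male trees 1, 2 and 3. The most abundant gene related to rank 18, at 102, 27.2 and 101 TPM in female trees against 83.8, 64.0 and 64.2 TPM in male trees, was also not called (limma adjusted p = 0.932).

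**Figure D3:**
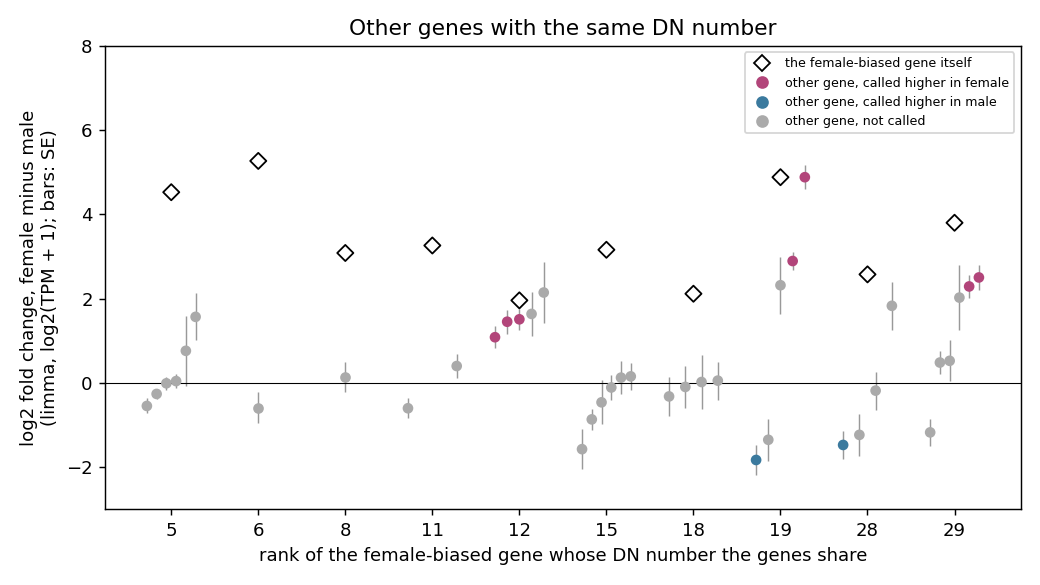
Log2 fold change, female over male in log2(TPM + 1), with limma's SE as bars, of 40 tested genes that share a DN number with one of the 33 genes (circles, grouped by that gene's rank) and of the chosen gene itself (open diamonds). Called genes towards female trees appear at ranks 12, 19 and 29, and 2 further tested genes listed at 0 in all trees of one sex are not drawn. Both of these belong to rank 29 and were called, in opposite directions.

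With the sexes exchanged, the same rule gave 62 genes out of 4615 well-expressed ones (1.34%, against 0.768% for the female direction). This difference in number was not tested. It was smaller after TMM-type scaling (57 against 38) and after quantile normalization (57 against 39). The 33 female-biased genes had a median level of 35.9 TPM in female trees, and the 62 male-biased genes had one of 23.4 TPM in male trees. At 100 TPM or more there were 6 of the 33 and 4 of the 62. Listed at 0 in all trees of the opposite sex were 2 of the 33 (6.06%) and 10 of the 62 (16.1%), while 20 of the 33 (60.6%) and 30 of the 62 (48.4%) had at least 1 TPM in every tree of the opposite sex. The spread within the higher sex reached 1.5 times in 51.5% of the 33 and in 35.5% of the 62. Without male trees 1, 2 and 3 the male-biased genes numbered 127, 76 and 83. Without female trees 1, 2 and 3 the female-biased genes numbered 60, 65 and 48. In both cases the tree left out also drops a condition on the floor of the higher sex. Without male tree 1 the female-biased genes numbered 39, but no floor was dropped for them, so this is not set against the 127.

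Genes of larger components met the limits in a larger share. In components with several listed genes, 93 of 5443 well-expressed genes (1.71%) met the same limits of level and gap, against 0.768% of single-gene components. Their median female level was 22.6 TPM. Of these 93, 11 were listed at 0 in all male trees and 41 had at least 1 TPM in every male tree.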

How the data were processed

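The authors deposited 1 table per library, with 1 value per gene. No source used here names the unit. It was taken to be TPM because the deposited values are not whole and add up to between 997065 and 998035 in each library. The highest value of every listed gene was at least 2.01 TPM. How the genes were assembled, quantified and annotated is not given in the sources used here. The members and tests were chosen with earlier results of these data known.

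Genes with at least 1 TPM in 3 libraries (41430 genes, 2416 left out) were transformed to log2(TPM + 1) and fitted with limma 3.58.1 in R 4.3.3. The model had sex as its only term and a trend of variance with level. Tests were two-sided, and p-values were adjusted by Benjamini-Hochberg over the 41430 genes, with calls at 0.05. The fit was also run on simulated data with independent normal noise for each gene. That setting holds no shifts of whole libraries, and its outcome is not reported here. Other values were computed in Python with pandas 2.3.3. Identifiers are given for the most abundant member and for the most abundant one listed at 0 in all male trees. The labels call the trees independent, so each tree is a replicate. Alternatives were TMM-type scaling (trimming 30% of the ratios and 5% of the levels on both sides), quantile normalization, other filters, a pseudocount of 0.1, no trend, a replicate block, each library left out, and other limits of the rule.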

Additional observations from a re-analysis of the deposited data

How the results depend on the processing

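The female-biased set numbered 33 as reported, 38 after TMM-type scaling (33 shared) and 39 after quantile normalization (32 shared). The male-biased set, 62 as reported, numbered 57 after either of these. Leaving out each library gave 37 to 65 female-biased genes, which include all 33 since a condition is dropped. Of these, 3 to 11 were listed at 0 in all remaining male trees and 23 to 35 had at least 1 TPM in each. The median log2 difference was then 2.70 to 3.29, the share of female TPM 0.377% to 0.438%, and the male-biased set 70 to 127 genes. Limits of 2, 5 and 10 times gave 68, 16 and 11 genes, of which 54, 6 and 1 had at least 1 TPM in every male tree. Their median log2 differences were 2.15, 4.63 and 4.96, their shares of female TPM 0.536%, 0.247% and 0.227%, and the male-biased sets 109, 41 and 29 genes. A floor of 5 TPM gave 119 genes, 41 of them listed at 0 in all male trees, with 0.448% of female TPM and a male-biased set of 151. A floor of 20 TPM gave 20 genes, 0 of them listed at 0 in all male trees, and a male-biased set of 29. With any component size there were 126 genes, 13 listed at 0 and 61 with at least 1 TPM in every male tree, a median of 3.30, 0.955% of female TPM and a male-biased set of 217. Only genes alone in their DN number left 23, of which 13 had at least 1 TPM in every male tree.

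Of the 4825 calls, 1951 were towards female trees, against 2120 of 4603 after TMM-type scaling and 2076 of 4567 after quantile normalization. A filter of 5 TPM called 2787 genes, 1185 towards female trees, and 3 and 1 of the related genes towards female and male trees. With each library left out there were 2613 to 4065 calls, 1054 to 1705 towards female trees, and 5 to 7 and 1 to 3 related genes. The replicate block gave 3694 calls, and the same-numbered trees deviated together at correlations of 0.175, 0.071 and -0.042, so the numbers were not taken to pair the trees. Unless a filter or a missing library explains a shift, its cause was not tested. Settings for the male-biased set, for the calls among the 33 genes and for the related genes, other than the 5 TPM filter, were added after the data were seen. Unknown depth limits what a listed 0 shows.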
